A study of Mus musculus with 6 samples.

Results

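Oxidative phosphorylation genes of mouse liver iNKT1 cells were taken as every row of the deposited expression table whose symbol names a subunit or close partner of the respiratory chain or ATP synthase. The nuclear symbols used were Nduf followed by a, b, c, s or v, Cox followed by a digit from 4 to 8, those starting with Uqcr or Atp5, the 4 Sdh subunit genes, Cyc1 and Cycs. The others were mt-Nd, mt-Co, mt-Cytb and mt-Atp for mitochondrial DNA. Pseudogenes were left out, which removed 1 row. The rule found 102 of the 12942 rows, 89 of them nuclear and 13 mitochondrial. Another 8 matches in the annotation, among them Cox4i2, Cox6b2, Cox7b2, Cox8b, Cox8c and Ndufa4l2, were not analysed here.

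RNA was sequenced from liver cells that stained with CD1d tetramer and carried a YFP reporter, 3 libraries in each of 2 groups, with the replicate numbers 1, 2 and 4. Control cells had the genotype Tbx21Cre Rosa26-YFP+, and cKOHet cells the genotype Tbx21Cre Ets1F/F Tbx21F/+ Rosa26-YFP+, so both groups carried the Cre and the reporter. The Cre is driven from Tbx21, the gene of the transcription factor T-bet, so deletion depends on expression of that gene, and the floxed Tbx21 allele was present in cKOHet cells alone. The sources used here do not give the age or number of mice behind a library. Cells of the thymus, and animals in which Ets1 was floxed but Tbx21 was not, appear in the design text and were not analysed here. The comparison asks how deleting Ets1, with 1 Tbx21 allele floxed as well, affects the transcripts of the respiratory machinery.

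Respiration passes electrons from NADH through complex I, and from succinate through complex II, to coenzyme Q, complex III, cytochrome c and complex IV, and the proton gradient that results drives ATP synthase, complex V. Complexes I, III, IV and V are mosaics: their core contains 13 proteins encoded in mitochondrial DNA, which is transcribed as long precursors by its own polymerase, while all other subunits, and every subunit of complex II, come from nuclear genes. T cells are known to change the balance of glycolysis and respiration with activation and differentiation. Here complex I was represented by 36 nuclear and 7 mitochondrial genes, complex II by 4 nuclear genes, complex III by 9 and 1, complex IV by 13 (Ndufa4 included) and 3, and complex V by 16 and 2. The remaining nuclear genes were 8 assembly factors of complex I (the Ndufaf genes), the ATP synthase coupling factor gene Atp5s, the supercomplex factor gene Cox7a2l and Cycs, which encodes cytochrome c.

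Levels are normalised read counts, given in the order of replicates 1, 2 and 4 with controls ahead of cKOHet libraries, and the libraries summed to between 4996523 and 5219483. Ets1, the targeted gene, was at 7391, 6255 and 7787 in control replicates 1, 2 and 4 and at 462, 596 and 441 in cKOHet replicates 1, 2 and 4 (log2 fold change -3.84, limma adjusted p = 1.06e-10). Tbx21 was at 2434, 2504 and 2765 against 2173, 2316 and 2127 (log2 fold change -0.22, limma adjusted p = 0.196). All 8 markers of iNKT1 cells had a row, with sums of 44643 to 48331 in controls and 39128 to 44242 in cKOHet libraries. These sums did not overlap, and the markers moved apart: Il2rb, the most abundant, was called lower (log2 fold change -0.72, limma adjusted p = 0.0029) and Zbtb16 higher (0.53, limma adjusted p = 0.0267). Summed markers of other cell types ranged over 233 to 425 and 284 to 749 for hepatocytes (10 of 10 with a row, Alb the highest), 36.6 to 98.3 and 152 to 210 for macrophages (10 of 10), and 172 to 224 and 48.9 to 52.4 for endothelium (2 of 6, mostly Pecam1, which lymphocytes also express). Of the B cell markers only Ighm had a row (1889 to 2063 and 765 to 1048), of the erythroid markers only Hba-a1 (0.00 to 0.06 and 7.40 to 33.2), and of the neutrophil markers none; their part in the results was not tested. Control replicate 4 and cKOHet replicate 4 differed from the other libraries in having almost no Xist (1.17 and 0.08 against 4337 to 5657) and high Ddx3y, so each group held 1 such library.

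Transcripts of the respiratory machinery differed little between the groups, and a single gene passed the test. Each gene was fitted with limma on log2(value + 1), and a gene was called when its Benjamini-Hochberg adjusted p over all 11226 genes tested was under 0.05. By that rule 21.4% of all genes were called: 11.5% were higher in cKOHet libraries and 9.97% were lower. Of the 100 oxidative phosphorylation genes that passed the filter on low values, 0 were called higher and 1 was called lower. At an unadjusted p under 0.05 there were 5, 2 higher and 3 lower. The groups did not overlap at 16 of the 100 genes, 9 higher and 7 lower in cKOHet libraries, where the share over all genes was 35.8%. Because the labels do not name the mice, the spread behind each p-value is that between libraries, which may be technical.

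The fitted differences were small in size. The log2 fold change lay within 1.5-fold in either direction for 96 of the 100 genes (96.0%), compared with 73.7% of all genes tested. The median was -0.06, beside 0.01 for all genes. The 95% interval of the difference lay wholly within 2-fold for 90 of the 100, and within 1.5-fold for 64, so most of these genes were measured precisely enough to show a 2-fold difference; over all genes the counts were 6975 and 3348 of 11226. The median standard error was 0.16 for these genes and 0.21 for all genes. In bulk RNA, fewer mitochondria-rich cells and less of these transcripts in each cell cannot be told apart.

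**Figure D1:**
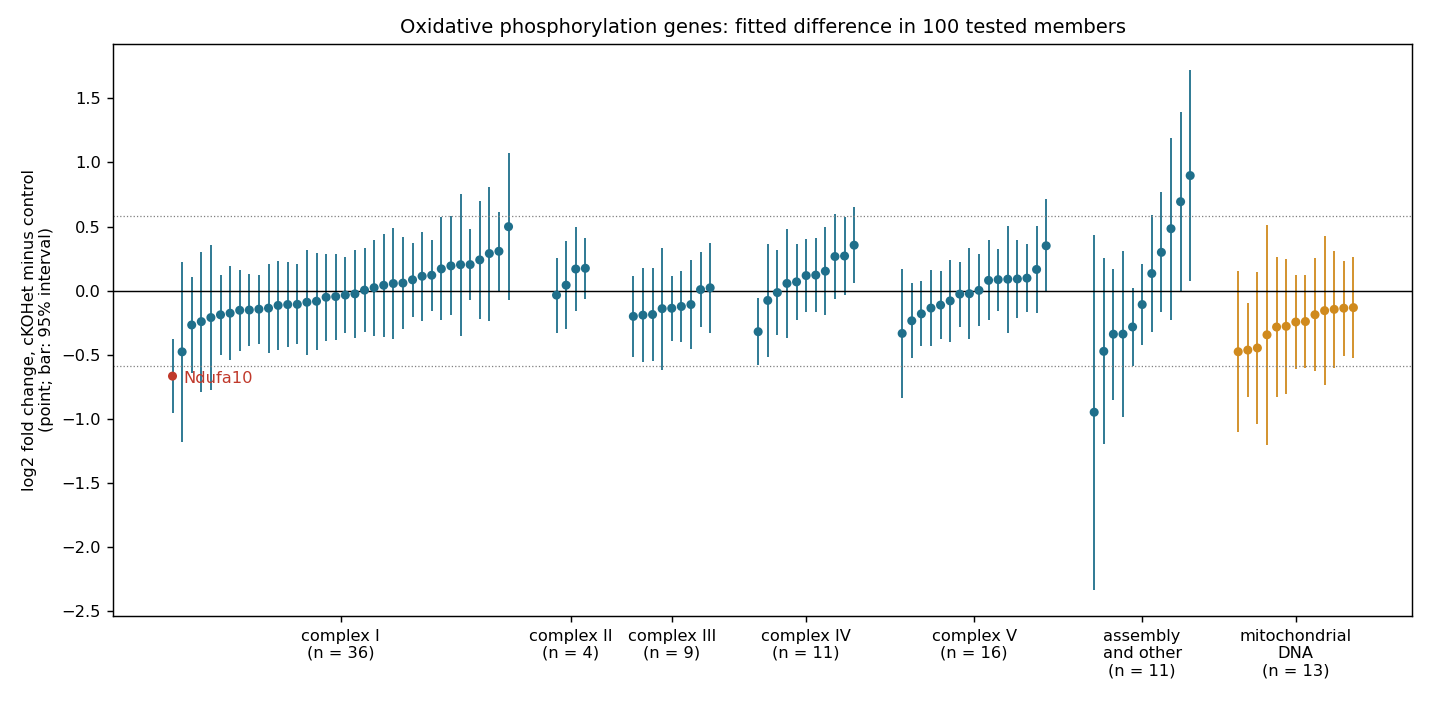
Fitted log2 fold change (cKOHet minus control, on the log2(value + 1) scale) of the 100 tested oxidative phosphorylation genes, ordered within each complex; points are estimates, bars are 95% intervals, dotted lines mark 1.5-fold, and mitochondrial genes are in orange. Ndufa10, in red, was the single gene called, and all 13 mitochondrial genes lie below 0 with intervals that reach to or past 0 for 12 of them.

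The called gene was Ndufa10, an accessory subunit of complex I (ENSMUSG00000026260, mm10 chromosome 1, 92439010 to 92473860, minus strand). It was at 603, 551 and 693 in control replicates 1, 2 and 4, and at 371, 421 and 367 in cKOHet replicates 1, 2 and 4. Every cKOHet library was below every control. The means were 616 ± 72.2 and 386 ± 29.9 (SD, n = 3 libraries each), a log2 fold change of -0.67 (SE 0.14, 95% interval -0.96 to -0.38, limma adjusted p = 0.00213), or 1.59-fold. Without any 1 library the log2 fold change ranged from -0.74 to -0.58 and the gene was called in 6 of 6 such fits. No 50-base stretch of its principal transcript occurred in another annotated transcript, so its reads are not split with an annotated copy.

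The promoter of Ndufa10 is shown with those of Cox6a1 and Sdha because Ets-family factors, nuclear respiratory factor 1 and Yy1 are known regulators of respiratory genes, and Ets1 is the factor deleted here. The sequences are RefSeq promoters of GRCm38.p6, from 250 bases before to 50 bases after the start of transcription. They lie on the minus strand at chr1:92473709-92474008 (Ndufa10), chr5:115348909-115349208 (Cox6a1) and chr13:74350191-74350490 (Sdha). Capitals mark matches, on either strand, to CCGGAAG (Ets type), GCGCANGCG (nuclear respiratory factor 1 type), AAGATGGCG (Yy1 type), CACGTG (E-box) and TCAAGGTCA (Esrra type).
Ndufa10: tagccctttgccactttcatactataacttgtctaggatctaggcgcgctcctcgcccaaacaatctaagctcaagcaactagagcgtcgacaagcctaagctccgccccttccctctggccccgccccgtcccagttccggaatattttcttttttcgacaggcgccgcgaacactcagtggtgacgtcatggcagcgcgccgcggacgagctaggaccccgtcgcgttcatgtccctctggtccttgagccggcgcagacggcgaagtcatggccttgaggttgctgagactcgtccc
Cox6a1: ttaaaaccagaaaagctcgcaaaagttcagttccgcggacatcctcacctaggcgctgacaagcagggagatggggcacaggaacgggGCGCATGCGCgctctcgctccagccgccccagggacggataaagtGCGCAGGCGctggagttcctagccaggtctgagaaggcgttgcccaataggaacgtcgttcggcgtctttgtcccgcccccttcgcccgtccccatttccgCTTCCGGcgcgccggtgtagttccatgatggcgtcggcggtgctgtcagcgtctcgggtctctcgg
Sdha: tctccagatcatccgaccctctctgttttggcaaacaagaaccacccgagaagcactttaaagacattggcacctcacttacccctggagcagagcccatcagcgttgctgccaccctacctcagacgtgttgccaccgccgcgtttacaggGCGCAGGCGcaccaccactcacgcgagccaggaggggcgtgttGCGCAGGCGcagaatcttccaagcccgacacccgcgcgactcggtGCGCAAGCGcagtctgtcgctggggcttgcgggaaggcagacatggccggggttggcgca
Ndufa10, the gene that was lower, held 0 matches to any of the 5 motifs, which says only that these exact letters are not in this window. Its promoter does hold ccggaat, which differs from the Ets type letters in the last base. Cox6a1 held 1 match of the Ets type and 3 of the nuclear respiratory factor 1 type, with 2 of the 3 overlapping as a palindrome, and Sdha held 3 of the latter. Neither Cox6a1 nor Sdha was called. The 3 promoters are examples, and a link between matches and differences was not tested. Ndufs3, Cox8a and Atp5l, not shown, each held 2 matches of the Ets type. None of them was called, though all cKOHet values of Ndufs3 were below all controls.

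Among all nuclear members, 72 of 89 had a promoter in the RefSeq table, 77 promoters in total. The Ets type letters were in 18 of the 77 (23.4%), compared with 8.86% of all 32851 promoters in the table and 19.8% of the 10535 promoters of genes tested here. The nuclear respiratory factor 1 type was in 31.2%, against 6.25% of all and 14.3% of those of tested genes. The Yy1 type was in 10.4%, against 1.4% and 3.45%. The E-box was in 7.79%, against 7.15% and 10.3%, and the Esrra type in 2.6%, against 0.423% and 0.304%. At least 1 of the Ets, nuclear respiratory factor 1 and Yy1 types was in 53.2% of member promoters, 14.8% of all and 33.0% of those of tested genes. These shares were not tested, and a match is a description of letters that does not show binding.

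Complex I, the NADH dehydrogenase, held 36 nuclear genes, all tested, of which 0 were called higher and 1, Ndufa10, was called lower. Their median log2 fold change was -0.04. Ndufs3, a core subunit named after its values were seen, did not overlap between the groups (295, 290.1 and 294 against 246, 279 and 248), with a log2 fold change of -0.19 and a limma adjusted p of 0.41. Among accessory subunits, also named after their values were seen, Ndufa2 was at 239, 250 and 235 in controls and 300.1, 302 and 293 in cKOHet libraries (log2 fold change 0.31, limma adjusted p = 0.16). All cKOHet values of Ndufa2 were higher, yet the gene was not called. The extremes beside Ndufa10 were Ndufb4, at -0.48, and Ndufs5, at 0.50 on the log2 scale, both of them low genes.

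Levels of different genes were compared per kb of the principal transcript. Within complex I the control mean ran from 19.6 normalised counts per kb for Ndufb2 to 657 for Ndufa3, a 33.5-fold range, with a median of 286. In cKOHet libraries Ndufb2 was at 16.8, Ndufa3 at 587 and the median at 267 per kb. Subunits that occur in the assembled complex together thus had levels per kb far apart in both groups, but these depend on the length used. Ndufb2 was divided by 4371 bases and Ndufa3 by 515, while their control means were 85.7 and 338 counts. Summed over the 36 genes, complex I was at 10721, 10648 and 11216 per kb in the controls and at 11579, 11021 and 9584 in cKOHet libraries. The groups overlapped, with cKOHet replicate 1 the highest library and cKOHet replicate 4 the lowest.

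Complex II, succinate dehydrogenase, links the tricarboxylic acid cycle to the chain, and 0 of its 4 genes were called (limma, 0 at an unadjusted p under 0.05). Sdha, the flavoprotein, was at 1425, 1410.3 and 1650.1 in the controls and at 1659.8, 1678 and 1712 in cKOHet libraries. All cKOHet values were above all controls, though control replicate 4 was almost level with cKOHet replicate 1 (log2 fold change 0.17, 95% interval -0.07 to 0.41, limma adjusted p = 0.318). Sdhb, the iron-sulphur subunit, was at 435, 435 and 419.7 against 422, 476 and 367. The membrane anchors Sdhc and Sdhd were at 275, 358 and 381 against 355, 411 and 365, and at 432, 416 and 383 against 546, 375 and 366. These 3 overlapped between the groups, with log2 fold changes of -0.03, 0.17 and 0.04 for Sdhb, Sdhc and Sdhd. The interval of the difference lay within 1.5-fold for all 4 genes of the complex. Per kb, Sdha was the highest (516 in controls) and Sdhc the lowest (107), the latter over a principal transcript of 3171 bases.

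Complex III carries electrons from coenzyme Q to cytochrome c. Of its 9 nuclear genes 0 were called (limma, 0 at an unadjusted p under 0.05), 7 had a log2 fold change below 0, and the range was -0.20 (Uqcrh) to 0.02 (Uqcr11). Uqcrh, the hinge protein and the highest of the complex per kb (1653 in controls, 1449 in cKOHet libraries), was at 1002, 929 and 782 against 977, 713 and 688. Uqcrq, the lowest per kb (155 and 142), was at 208, 198 and 301 against 242, 257 and 149. Cyc1, the cytochrome c1 gene, was at 476, 367 and 519 against 408, 494 and 359. The groups overlapped at all 9 genes. Cycs, the mobile carrier between complexes III and IV, was at 409.9, 493 and 404 against 474, 359 and 382 (log2 fold change -0.11, limma adjusted p = 0.675).

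Complex IV, cytochrome c oxidase, had 13 nuclear genes, of which 11 passed the filter and 0 were called (limma; at an unadjusted p under 0.05 there were 2, 1 in each direction). Cox4i1, the largest nuclear subunit, was at 1353, 1336 and 1359 in the controls and at 1239.8, 1090.0 and 934 in cKOHet libraries. Every cKOHet library was lower, and the controls were nearly level with each other (log2 fold change -0.32, 95% interval -0.58 to -0.06, limma adjusted p = 0.0813). The gene was called only without cKOHet replicate 1, at an adjusted p of 0.032 by limma. Cox6c, a small accessory subunit named after its values were seen, went the other way, with 479, 514 and 424 against 681, 609 and 527. Its groups did not overlap either (log2 fold change 0.35, limma adjusted p = 0.0848, and 0.039 without cKOHet replicate 4). Per kb, Cox4i1 was the highest gene of the complex in both groups (1764 in controls, 1422 in cKOHet libraries), and among the 11 that passed the filter Cox7b was the lowest in controls (438).

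Several complex IV subunits exist as paralogous isoforms, and the widely expressed form was the abundant one where both had a row: per kb, controls had 1119 for Cox6a1 and 0.59 for Cox6a2, and 535 for Cox7a2 and 9.18 for Cox7a1. Cox6a1, the general form of subunit 6a, was at 619, 523 and 774 against 650, 852 and 621, and Cox7a2, the general form of subunit 7a, at 405, 370.3 and 282 against 449, 421 and 390.3. Cox6b1, Cox8a and Ndufa4 averaged 626 ± 69.9, 762 ± 86.2 and 525 ± 53.4 in controls and 658 ± 95.8, 763 ± 175 and 569.6 ± 60.4 in cKOHet libraries (SD, n = 3 libraries each). None of the 5 was called, and the groups overlapped at each. Cox7a2l, which encodes a relative of subunit 7a that joins complexes III and IV in supercomplexes, was at 1263, 964 and 1143 against 1108, 818 and 850.3 (log2 fold change -0.28, limma adjusted p = 0.188). The muscle form Cox7a1 did not pass the filter and was at 6.58, 3.16 and 1.09 in controls and 6.03, 0.00 and 0.02 in cKOHet libraries.

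The muscle form Cox6a2 also failed the filter, but its values separated the groups. It was at 0.00, 0.06 and 1.13 in the controls and at 16.1, 34.8 and 7.31 in cKOHet libraries, so every cKOHet library was higher. In a fit with no filter it was called (log2 fold change 3.71 on the log2(value + 1) scale, limma adjusted p = 0.00265). Cox6a2 (chromosome 7, 128205435 to 128206387, minus strand, mm10) lies wholly inside Itgad (128154376 to 128223816, plus strand), an integrin alpha chain gene. Itgad was at 3.53, 2.22 and 0.11 in controls and 607, 1217 and 749 in cKOHet libraries (log2 fold change 8.34, limma adjusted p = 8.11e-09). The library order was not the same at both genes: cKOHet replicate 2 was the highest for each, while replicate 4 was the lowest for Cox6a2 and replicate 1 for Itgad. Of the 50-base words of Cox6a2, 3.33% also occurred in an Itgad transcript. The sources used here do not give the strand setting of the counting, so reads of Cox6a2 and of Itgad cannot be told apart.

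**Figure D2:**
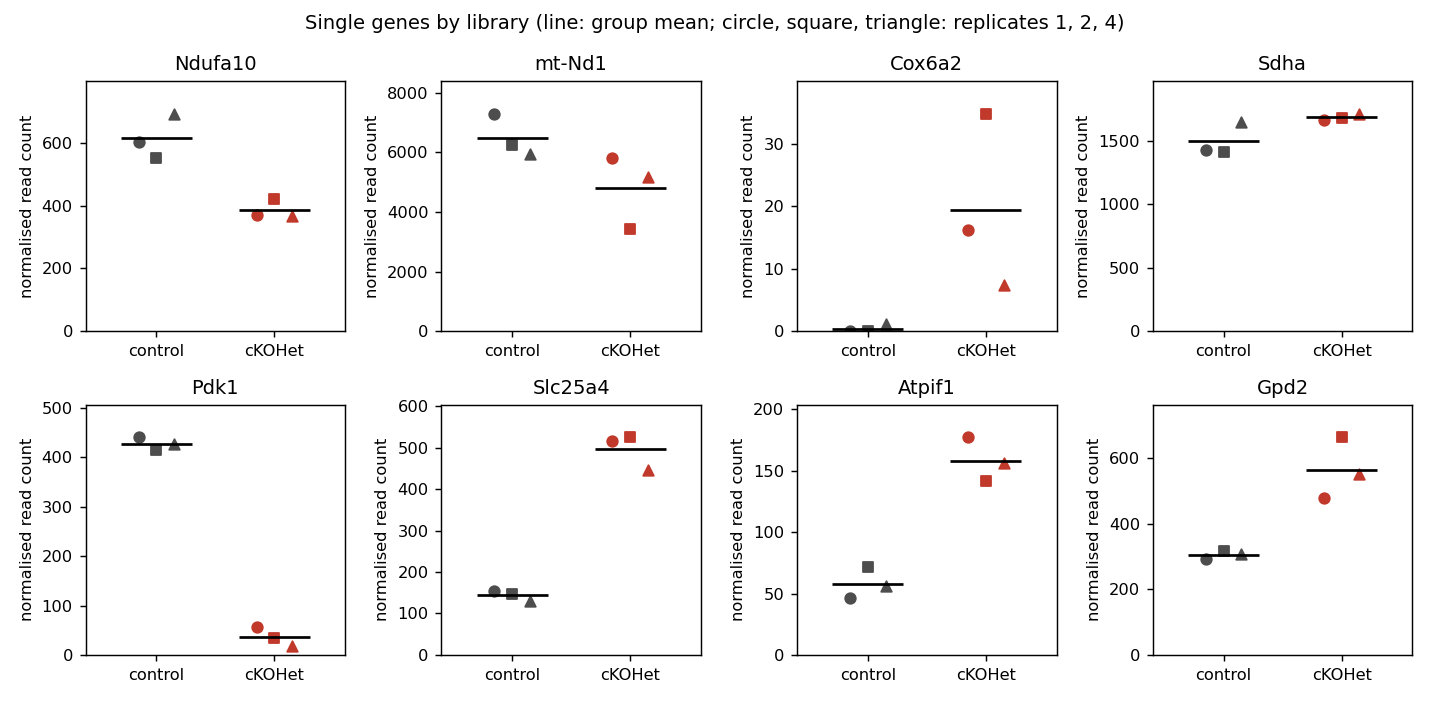
Normalised read counts by library for 4 oxidative phosphorylation genes (upper row) and 4 other mitochondrial genes (lower row), each on its own linear axis from 0; lines are group means and marker shapes are replicates 1, 2 and 4. The groups do not overlap at any of the 8 genes shown, but only Ndufa10, Pdk1, Slc25a4, Atpif1 and Gpd2 were called in the fit of filtered genes.

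Complex V, ATP synthase, had 16 nuclear genes, and 0 were called (limma, 0 at an unadjusted p under 0.05). The catalytic core genes Atp5a1 and Atp5b, the alpha and beta subunits, had the most counts of the nuclear members before correction for length; per kb, Atp5a1 (1382 in controls) was below Cox4i1 (1764). Atp5b was at 4238, 4151 and 4403 in controls and 4622, 4658 and 4300.3 in cKOHet libraries, and Atp5a1, named after its values were seen, at 3378, 3115 and 3756 against 3448, 3486 and 3108. The groups overlapped at both, with log2 fold changes of 0.09 and -0.03. The 3 genes of the membrane ring of c subunits, Atp5g1, Atp5g2 and Atp5g3, encode the same mature protein with different import sequences. They averaged 333 ± 5.10, 415 ± 14.6 and 869 ± 41.4 in controls and 379 ± 74.0, 354 ± 37.7 and 767 ± 67.3 in cKOHet libraries, with log2 fold changes of 0.17, -0.24 and -0.18. Atp5g2 did not overlap between the groups (limma adjusted p = 0.263), but 87.4% of its 50-base words also occurred in other annotated transcripts, so its counts are uncertain. Per kb, Atp5b was the highest gene (2225 in controls) and Atp5g1 the lowest (70.6), the latter over a principal transcript of 4715 bases.

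Assembly factors were expressed at lower levels and varied more. The 8 Ndufaf genes, which help to build complex I, had control means of 17.6 to 81.9 normalised counts per kb, and 0 were called (limma, 0 at an unadjusted p under 0.05). Their log2 fold changes ran from -0.95 for Ndufaf6, with 13.8, 14.8 and 28.4 against 17.1, 15.8 and 2.15, to 0.69 for Ndufaf5, with 35.9, 57.0 and 29.7 against 81.6, 61.2 and 53.1. The value for Ndufaf6 rested on cKOHet replicate 4 and was -0.13 without it. Atp5s, at 21.2, 16.9 and 14.9 in controls and 41.3, 33.4 and 27.1 in cKOHet libraries, had no overlap between groups and the largest positive log2 fold change of the tested members, 0.90 (SE 0.39, limma adjusted p = 0.119). Ndufaf5 and Atp5s were named after their values were seen.

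Summed per kb, no single complex separated the groups. The mean log2 sum of cKOHet libraries minus that of controls was -0.02 for nuclear complex I, 0.09 for II, -0.13 for III, 0.06 for IV and -0.01 for V. The pooled spread between libraries of a group was 0.10, 0.07, 0.11, 0.12 and 0.10 on the same scale. The nuclear order was the same in both groups, with complex V the highest, then I, IV, III and II, although sums grow with the number of subunits counted. Within cKOHet, replicates 1 and 4 stood apart: of the 87 nuclear genes tested, 30 had their highest value in cKOHet replicate 1 and 40 their lowest in cKOHet replicate 4. Of all 11226 genes tested, 1547 were highest in cKOHet replicate 1 and 2282 lowest in cKOHet replicate 4. The ratio of nuclear complex IV to complex I, looked at after the values were seen, was 0.905, 0.909 and 0.898 in controls and 0.941, 0.995 and 0.933 in cKOHet libraries. These did not overlap, but with lengths over all annotated exons they did (0.876, 0.852 and 0.880 against 0.876, 0.954 and 0.878). Without Ndufa4, per kb of the principal transcript, they did not (0.815, 0.834 and 0.825 against 0.851, 0.917 and 0.839). The total of all nuclear members was 42038, 41337 and 43868 in controls and 45087, 43013 and 37797 in cKOHet libraries, so the spread was wider in cKOHet libraries.

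**Figure D3:**
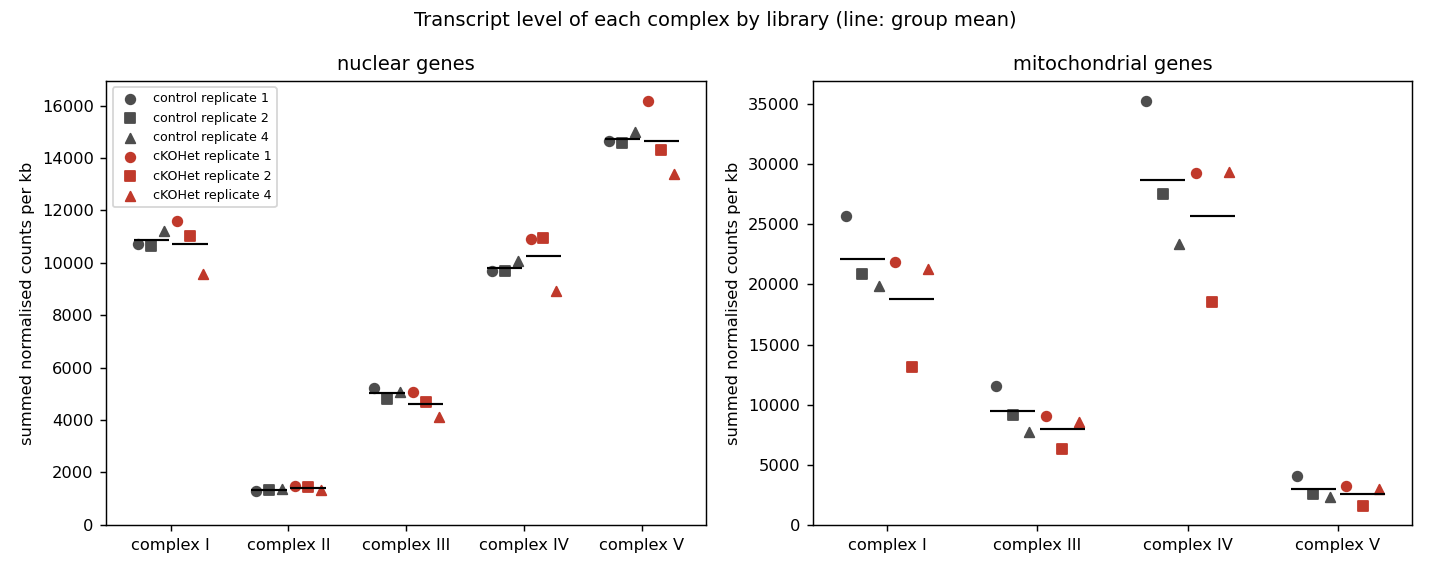
Summed normalised counts per kb of transcript for the nuclear genes (left) and mitochondrial genes (right) of each complex in each library; lines are group means and both axes start at 0. The groups overlap for every complex on both sides, with cKOHet replicate 2 the lowest library for each mitochondrial sum.

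The 13 genes of mitochondrial DNA gave 94312, 74592 and 65956 normalised counts in controls and 78291, 50335 and 77971 in cKOHet libraries, more than the 89 nuclear genes together. That was 1.84%, 1.49% and 1.27% of all counts in controls and 1.55%, 0.989% and 1.49% in cKOHet libraries. The groups overlapped. The ratio of mitochondrial to nuclear members was 2.24, 1.80 and 1.5 in controls and 1.74, 1.17 and 2.06 in cKOHet libraries, and it overlapped too. Of the 13 genes, 0 were called in either direction (limma, 1 at an unadjusted p under 0.05). All 13 had a log2 fold change below 0, from -0.48 to -0.13 with a median of -0.25, while 42 of the 87 nuclear genes were above 0 and 45 below, with a median of -0.02. After a correction for transcript length in each library, 10 of the 13 were below 0, and the median was -0.07.

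This common direction rested on single libraries. The 13 genes moved together within groups, with cKOHet replicate 2 the lowest library for 13 of 13 and control replicate 1 the highest for 12 of 13. Of all 11226 genes tested, 1660 were lowest in cKOHet replicate 2 and 1562 highest in control replicate 1. Without cKOHet replicate 2, 7 of the 13 were above 0 and the median was 0.06. Without control replicate 1, 10 of the 13 were below 0 with a median of -0.05. Without each of the other 4 libraries in turn, all 13 were below 0 and the median lay between -0.39 and -0.29. Only 2 of the 13 had a 95% interval within 1.5-fold, compared with 62 of the 87 nuclear genes, so the mitochondrial transcripts were measured less precisely.

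**Figure D4:**
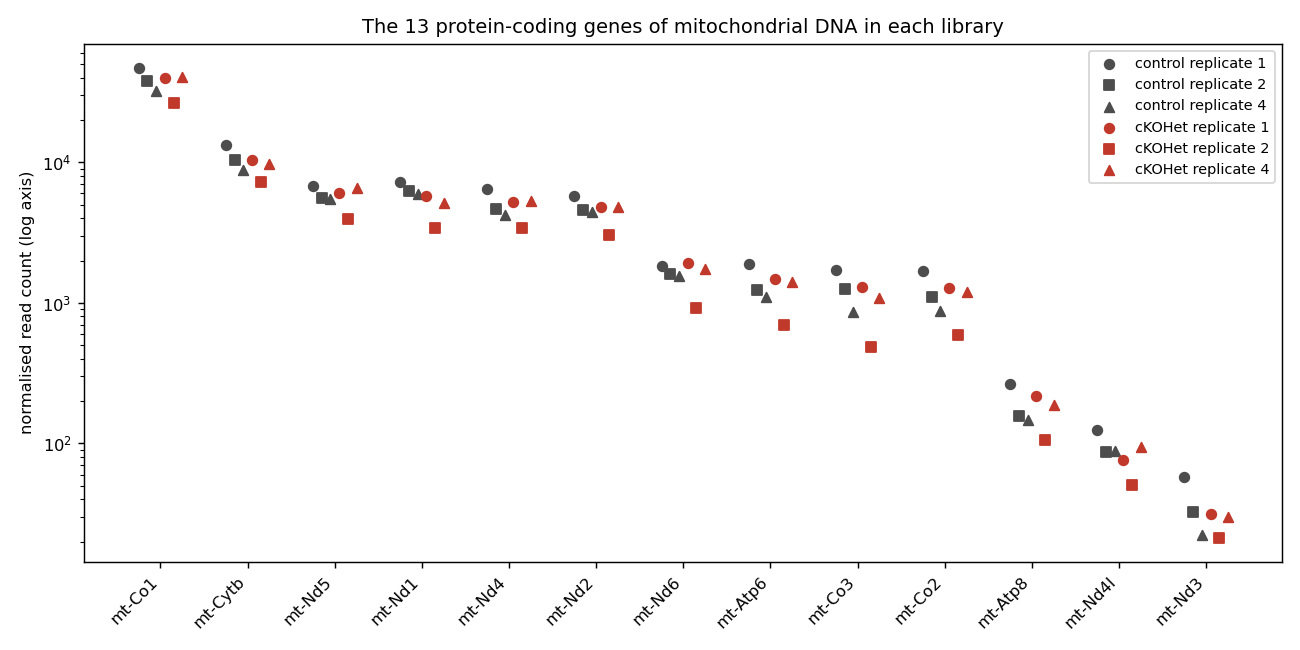
Normalised read counts (log axis) of the 13 protein-coding genes of mitochondrial DNA in each of the 6 libraries, ordered by mean level; grey markers are controls, red markers cKOHet libraries, and shapes are replicates 1, 2 and 4. The red square, cKOHet replicate 2, is the lowest point for every gene, and mt-Nd1 is the one gene at which the groups do not overlap.

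The gene nearest the threshold was mt-Nd1, a core membrane subunit of complex I (mitochondrial chromosome, 2751 to 3707). It was at 7293, 6254 and 5925 in controls and 5799, 3432 and 5171 in cKOHet libraries. All cKOHet values were below all controls, though cKOHet replicate 1 was only slightly below control replicate 4 (log2 fold change -0.46, SE 0.17, limma adjusted p = 0.0692). It was called without cKOHet replicate 1 (limma adjusted p = 0.0204) and stood at -0.24 without cKOHet replicate 2 (limma adjusted p = 0.327). The 16S ribosomal RNA gene mt-Rnr2, which lies just before mt-Nd1 on mitochondrial DNA and is no member, was called lower, at 896, 732 and 727 against 619, 433 and 629 (log2 fold change -0.50, limma adjusted p = 0.0315). Its call was lost without control replicate 1, control replicate 2 or cKOHet replicate 2 (limma adjusted p = 0.143, 0.0507 and 0.155), and also with the length correction, with no mean-variance trend and with replicates 2 and 4 alone (0.0624, 0.152 and 0.13).

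The other complex I genes of mitochondrial DNA overlapped between the groups. The log2 fold change was -0.24 for mt-Nd2, -0.13 for mt-Nd4, -0.14 for mt-Nd5 and -0.19 for mt-Nd6, and the lowest value among these 4 genes was 917, for mt-Nd6 in cKOHet replicate 2. The short genes mt-Nd3 and mt-Nd4l had 21.2 to 57.4 and 50.9 to 125 counts and log2 fold changes of -0.34 and -0.45. In complex III, mt-Cytb was at 13229, 10411 and 8869 against 10367, 7255 and 9756 (log2 fold change -0.25, limma adjusted p = 0.368). In complex V, mt-Atp6 was at 1896, 1243 and 1097 against 1489, 692 and 1405, and mt-Atp8 at 263, 157 and 147 against 219, 106.5 and 188. Both were lowest in cKOHet replicate 2, with log2 fold changes of -0.28 and -0.16.

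Complex IV held the most abundant transcript of all members. The catalytic subunit gene mt-Co1 was at 47248, 37619 and 32408 in controls and 39730, 26379 and 40557 in cKOHet libraries (log2 fold change -0.15, limma adjusted p = 0.699). Its share of all mitochondrial member counts was steadier, at 50.1%, 50.4% and 49.1% in controls and 50.7%, 52.4% and 52.0% in cKOHet libraries. That share did not overlap between the groups, although cKOHet replicate 1 was barely above control replicate 2. mt-Co2, the copper-binding subunit, was at 1672, 1096 and 879.5 against 1277, 587 and 1191, and mt-Co3 at 1723, 1254 and 856 against 1300.3, 486 and 1085. Both overlapped, with log2 fold changes of -0.28 and -0.48.

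Levels per kb differed widely among the mitochondrial genes, and so did the share of their sequence that also occurs in other annotated transcripts. Copies without an annotated transcript were not searched for. In controls mt-Co1 was at 25302 normalised counts per kb, mt-Cytb at 9472, mt-Nd1 at 6782 and mt-Nd3 at 108. For 5 genes (mt-Co2, mt-Co3, mt-Atp6, mt-Nd4l and mt-Nd3) between 98.0% and 100% of 50-base words also occur in another annotated gene, mostly nuclear copies of mitochondrial DNA on chromosome 1. These 5 were at 108 to 2073 per kb. The 6 genes with under 10% of words shared (mt-Atp8, mt-Cytb, mt-Nd1, mt-Nd2, mt-Nd5 and mt-Nd6) were at 927 to 9472 per kb, and the remaining mt-Nd4 and mt-Co1, with 62.2% and 51.1% shared, at 3708 and 25302. The copies themselves had counts: Gm10925, Gm28661 and Gm28437, which match mt-Atp6, mt-Co2 and mt-Co3, lay between 122 and 275 in each library. The ratio of the highest to the lowest library was 2.45 to 3.55 among the 5 shared genes and 1.73 to 2.47 among the 6 genes with little sharing. Of these 6, mt-Atp8 had both the lowest level per kb and the highest such ratio. The sources used here do not say how reads with several matches were treated, and its part in these levels was not tested.

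**Figure D5:**
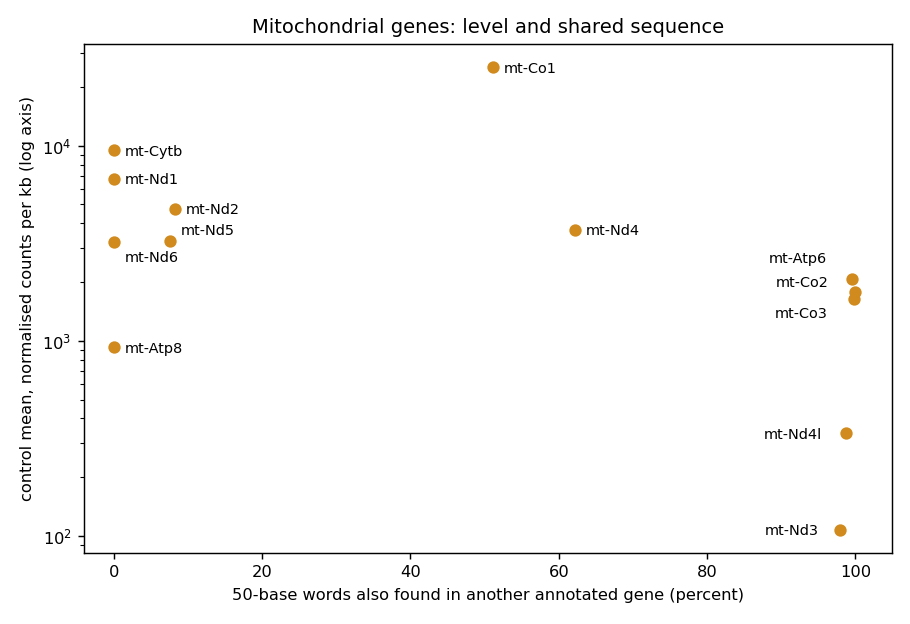
Control mean level of the 13 mitochondrial genes in normalised counts per kb (log axis) against the percent of their 50-base words that also occur in another annotated gene. The 5 genes with at least 98.0% of words shared sit at 108 to 2073 per kb, below mt-Cytb, mt-Nd1, mt-Nd2, mt-Nd4, mt-Nd5, mt-Nd6 and mt-Co1. The exception is mt-Atp8, with no word shared, which lies within that range at 927.

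The same check was run on the nuclear genes. Of the 89, 40 shared no 50-base word with another annotated transcript, 19 shared over 20% and 5 shared over 50%. These 5 were Atp5g2, Atp5l, Cox7c, Atp5h and Atp5o, named after their values were seen, and 0 of them were called. Their counts are uncertain, since reads may fall on pseudogenes.

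Other genes of mitochondrial energy metabolism were counted in 7 lists outside the rule. Of their 149 tested genes, cKOHet libraries were called higher at 8 and lower at 8, or 10.7% in all, where the shares over all genes were 21.4% called, 11.5% higher and 9.97% lower. Factors that assemble complexes II to V had 0 higher and 3 lower of 30. These were Sdhaf1 (log2 fold change -1.17), which matures the iron-sulphur subunit of complex II, the copper chaperone gene Sco1 (-1.03) and Cox10 (-0.53), an enzyme of haem A synthesis, the last with 228, 257 and 329.7 against 172, 202 and 184. Each of these calls was fragile: Sdhaf1 was called in 2, Sco1 in 2 and Cox10 in 1 of the 6 fits without a library, and the highest limma adjusted p was 0.142 (Sdhaf1, without control replicate 1), 0.146 (Sco1, without control replicate 2) and 0.207 (Cox10, without control replicate 4). Complex I assembly factors outside the symbol rule had 0 of 9 called (limma, 1 at an unadjusted p under 0.05).

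Genes that maintain and transcribe mitochondrial DNA had 0 of 29 called (limma, 2 at an unadjusted p under 0.05). Tfam, which packages and activates mitochondrial DNA, was at 349, 305 and 303 in controls and 248, 233 and 239 in cKOHet libraries. All cKOHet values were lower (log2 fold change -0.41, SE 0.15, limma adjusted p = 0.0616). Polrmt, the mitochondrial RNA polymerase, was at 172, 137 and 162 against 161, 163 and 206 (log2 fold change 0.17, limma adjusted p = 0.594).

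Transcriptional regulators of respiratory genes had 2 higher and 3 lower of 18 (27.8%, beside 21.4% of all genes). Hif1a, the oxygen-regulated factor, was called lower at 818, 787 and 781 against 509.6, 536 and 585 (log2 fold change -0.55, limma adjusted p = 0.00341). With replicates 2 and 4 alone Hif1a was not called (limma adjusted p = 0.0651), but it was called in 6 of 6 fits without a library. The calls of Mef2d (0.49), Creb1 (0.39), Ppard (-0.72) and Nfe2l2 (-0.46) held in 2, 2, 3 and 1 of those 6 fits, with highest limma adjusted p of 0.0801, 0.154, 0.0686 and 0.152, each without control replicate 4. The regulators most often tied to the chain were not called. Nrf1 was at 278, 293 and 238 against 273, 234 and 289, and Gabpa, an Ets-family factor, at 454, 472 and 506 against 572, 500.5 and 609 (log2 fold changes -0.02 and 0.23, limma adjusted p = 0.947 and 0.251). Esrra, Myc and Ppargc1b had log2 fold changes of -0.35, -0.11 and -0.28, with limma adjusted p of 0.142, 0.661 and 0.651.

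The lists for entry of carbon and electrons into the chain had lower shares called than all genes tested, but single genes differed widely. In pyruvate oxidation and the tricarboxylic acid cycle, 2 genes were called higher and 2 lower of 24 (16.7%, beside 21.4% of all genes). Pdk1, the kinase that inhibits pyruvate dehydrogenase, fell from 441, 414 and 428 in controls to 56.4, 34.1 and 18.8 in cKOHet libraries (log2 fold change -3.65, SE 0.30, limma adjusted p = 5.12e-07). The groups were far apart, with the highest cKOHet value well under the lowest control. Pdk2 and Pdk3, related kinase genes named after their values were seen, averaged 89.6 and 110 in controls and 121 and 137 in cKOHet libraries. Both overlapped between the groups and neither was called (log2 fold changes 0.42 and 0.32, limma adjusted p = 0.255 and 0.41). Pdha1, the alpha subunit of the pyruvate dehydrogenase that Pdk1 acts on, fell from 1039.5, 851 and 1087 to 643, 636 and 692. Its log2 fold change was -0.59 (limma adjusted p = 0.00327). Pdhb, the beta subunit gene, went the other way, with all cKOHet values above all controls, but was not called (log2 fold change 0.22, limma adjusted p = 0.277). Idh3a, a subunit of the NAD-dependent isocitrate dehydrogenase, rose from 397, 376 and 467 to 697, 642 and 629 (log2 fold change 0.67, limma adjusted p = 0.00166). Idh3b and Idh3g, genes of other subunits of that enzyme, leaned lower and were not called. Their log2 fold changes were -0.37 and -0.27 (limma adjusted p = 0.132 and 0.206). Pdhb, Idh3b and Idh3g were named after their values were seen. Pdha1 was not called with replicates 2 and 4 alone (limma adjusted p = 0.0581). Pdk1, Pdha1 and Idh3a were each called in 6 of 6 fits without a library. Ogdh, of the oxoglutarate dehydrogenase complex, was called higher (0.35, limma adjusted p = 0.0384) but held in 1 of 6 such fits, with 0.143 without control replicate 2.

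Entries to coenzyme Q beside complexes I and II had 2 higher and 0 lower of 19 (10.5%, beside 21.4% of all genes). Gpd2, the mitochondrial glycerol-3-phosphate dehydrogenase that feeds cytosolic NADH into the chain, rose from 293, 317 and 307 to 478, 663 and 551. Sqor, which oxidises sulphide and passes the electrons to coenzyme Q, rose from 15.6, 5.38 and 3.28 to 48.3, 42.8 and 36.4. The log2 fold changes were 0.87 and 2.49, with limma adjusted p of 0.000447 and 0.00255, and neither gene overlapped between groups. Carriers, uncoupling and membrane organisation had 2 higher and 0 lower of 20. Slc25a4, the ADP/ATP carrier that exports the ATP made by complex V, rose from 155, 148 and 129 to 516, 525 and 446 (log2 fold change 1.78, SE 0.15, limma adjusted p = 7.60e-07). Atpif1, which inhibits ATP hydrolysis by complex V, rose from 46.0, 71.8 and 56.1 to 177, 142 and 156 (log2 fold change 1.45, SE 0.24, limma adjusted p = 0.000424). Gpd2, Sqor, Slc25a4 and Atpif1 were each called in 6 of 6 fits without a library. The spans of Atpif1, Gpd2, Pdha1, Cox4i1 and Cox6c overlap those of annotated genes on the opposite strand. Where exons overlap, such reads cannot be told apart here without the strand setting. Cox4i1 also overlaps Gm20388, a protein-coding gene on its own strand, which that setting would not separate.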

How the data were processed

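RNA was isolated with RNeasy kits and libraries were made with Nugen Ovation Ultralow kits, per the labels' protocols. The deposited table holds a normalised signal for every Ensembl gene and library, made from HTSeq counts to judge by its name. Trimmomatic 0.33, STAR, HTSeq 0.6.1 and DESeq2 were used with mm10, per the submitters' processing notes. The sources used here do not give their settings, the strand or the annotation release. Values are not whole reads, so depth is unknown and no count test was run. No column was left unused. The replicate 1 columns join 2 codes, for a reason the labels do not state.

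Symbols came from GENCODE M21, which named 12864 of 12942 identifiers. Genes that reached 10 in 3 or more of the 6 libraries were tested on log2(value + 1), which understates changes of low genes, with limma 3.58.1 (mean-variance trend) in R 4.3.3 and Benjamini-Hochberg adjustment over all 11226. The procedure was tested on simulated data. With 3 libraries against 3, an exact permutation test could not fall below 0.1, so none is given. Lengths per kb are of the principal transcript, chosen by annotation rank, then support level, then greatest length. Levels per kb, and which gene is the lowest, depend on that choice. Sequence sharing counts 50-base words found in any other annotated transcript, on either strand. Promoters came from RefSeq (GRCm38.p6).

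Members and lists were chosen with earlier results of these data known. The genes named were Ets1 and Tbx21, all mitochondrial members, called nuclear members, the highest and lowest per kb in each complex, listed isoforms, Cycs, Cyc1, the Sdh genes, members that failed the filter, up to 4 called genes per direction in each other list and 8 regulators of mitochondrial transcription; others are marked where named. Alternatives covered the pseudocount, filter, scaling, length and GC corrections, variance model, replicate block, Xist term, threshold and each library left out. 1 member is not reported here by name.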

Additional observations from a re-analysis of the deposited data

How the results depend on the processing

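Ndufa10 was called under every alternative run. The number of nuclear members called higher went from 0 to 1 with no filter (Cox6a2), 3 with the length correction (Atp5k, Ndufa1 and Ndufa2), 1 with no trend (Atp5s) and 1 at a threshold of 0.1, and ranged from 0 to 1 when a library was left out (Cox6c without cKOHet replicate 4). The number called lower went from 1 to 2 at a threshold of 0.1 and ranged from 1 to 2 when a library was left out (Atp5d without control replicate 1, Cox4i1 without cKOHet replicate 1). The number of mitochondrial members called lower went from 0 to 1, mt-Nd1, with upper quartile scaling, the GC correction, robust eBayes, library weights and a threshold of 0.1, and ranged from 0 to 1 when a library was left out. Of the genes in the 7 other lists, 8 higher calls became 5 with the high Xist libraries alone, 5 with no trend and 5 at a threshold of 0.01, and 5 to 8 when a library was left out. The 8 lower calls became 4 with the high Xist libraries alone, 2 with replicates 2 and 4 alone, 4 with no trend, 3 at a threshold of 0.01 and 13 at 0.1, and 4 to 8 when a library was left out. Tfam was called lower with upper quartile scaling, the length and GC corrections and library weights (limma adjusted p from 0.0266 to 0.0422). The cause was not tested in any of these cases. The GC correction, the high Xist libraries alone, replicates 2 and 4 alone and the lengths over all exons were chosen after seeing the data.

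The labels give both groups the replicate numbers 1, 2 and 4. The deviations of same-numbered libraries from their group means correlated at 0.0917, 0.0878 and 0.0549 across genes, so the numbers were not taken as pairs, although each library correlated best with its own number. With a replicate block, 1 mitochondrial member (mt-Nd1) was called lower, and 2412 genes were called in all against 2407 without it. The median log2 fold change of nuclear members ranged from -0.07 (upper quartile scaling) to 0.10 (high Xist libraries alone). That of mitochondrial members ranged from -0.44 (high Xist libraries alone) to 0.06 (without cKOHet replicate 2), so the sign of both medians changed. Under the alternatives run for them, the sums by complex moved from their reported values by less than 1 SD between libraries, although the sign of some changed. No true depth is known, and the low values of Cox6a2, Cox7a1, mt-Nd3 and the assembly factors limit what their differences can show.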
